A study of Mus musculus with 6 samples.

Results

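The genes described here are 10 that mark or build the follicular helper T cell, a CD4 T cell that helps B cells make antibody. They are the transcription factors Bcl6, Ascl2, Tox and Tox2, the surface molecules Cxcr5, Icos, Cd200 and Slamf6, the adaptor Sh2d1a and the cytokine Il21. Each was found by its gene symbol in the annotation of the array platform; where a gene had several probe sets, the one brightest on average in log2 over the 6 arrays stands for it. All 10 were found, among 18193 genes with such a symbol. The values are linear array intensities (signals), so a level can be compared between arrays for 1 gene but not between genes.

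Follicular helper cells form when an activated CD4 T cell raises BCL6, a repressor that holds off the other helper fates, and CXCR5, a chemokine receptor that draws the cell towards B cell follicles. There they use costimulatory and SLAM family contacts, signalled inside the cell through the adaptor SAP, to stay in contact with B cells, and secrete interleukin 21, which drives germinal centre B cells and plasma cells. Some members are shared with other T cells: ICOS follows activation in general, TOX is known from thymic CD4 development and from exhausted cells, and a follicular type of regulatory cell carries BCL6 and CXCR5 too.

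The study set CD4 T cells without the proprotein convertase Furin, a protease that trims proproteins to their active forms on their way out of the cell, against cells with it. All mice were C57BL/6, 10 to 11 weeks old, and carried loxP-flanked Fur alleles on both chromosomes. Furin cKO cells, a conditional knockout, had the genotype CD4 cre Fur flox/flox, in which Cre is driven by the Cd4 promoter and so acts in developing thymocytes. WT cells had the genotype Fur flox/flox without Cre, so they too carried the floxed alleles. Both genotypes were measured in 3 populations. Activated cells were sorted as CD62L+CD44- naive cells and kept 2 days on plate-bound antibodies to CD3 and CD28, 5 µg/ml of each. Memory cells were CD62L-CD44+, regulatory cells were CD25+FoxP3+, and neither was cultured before RNA was taken. Each of the 6 combinations is 1 array, so no value has a replicate, and the labels do not say whether a sample pooled several animals or which samples shared one.

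RefSeq promoter windows of the GRCm38.p6 build, from 250 bases before to 50 after a gene's start, were at hand for 6 of the 10 genes, Bcl6, Ascl2, Tox2, Cd200, Slamf6 and Il21, as 11 windows. The 4 windows shown belong to the members with a transcription factor or cytokine role whose signals differed most in direction or size between the genotypes, and each is printed 5′ to 3′ along the gene's strand. Capitals mark a motif, searched on both strands: TTCNNNGAA, the STAT type of site, in both Bcl6 windows, GGAAA, the core of NFAT sites, in Il21 (its reverse complement reads TTTCC), and CANNTG, the E-box, in Ascl2. Each motif was counted on its own, so that a base may belong to a TTCNNNGAA and to a GGAAA at the same time.
Bcl6, upstream start, chr16:23988803-23989102, minus strand: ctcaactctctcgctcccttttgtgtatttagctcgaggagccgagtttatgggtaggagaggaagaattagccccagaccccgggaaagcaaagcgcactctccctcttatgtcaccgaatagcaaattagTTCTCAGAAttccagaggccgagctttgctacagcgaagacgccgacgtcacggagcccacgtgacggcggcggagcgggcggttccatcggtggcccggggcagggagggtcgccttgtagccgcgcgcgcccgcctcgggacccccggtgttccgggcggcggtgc
Bcl6, downstream start, chr16:23981234-23981533, minus strand: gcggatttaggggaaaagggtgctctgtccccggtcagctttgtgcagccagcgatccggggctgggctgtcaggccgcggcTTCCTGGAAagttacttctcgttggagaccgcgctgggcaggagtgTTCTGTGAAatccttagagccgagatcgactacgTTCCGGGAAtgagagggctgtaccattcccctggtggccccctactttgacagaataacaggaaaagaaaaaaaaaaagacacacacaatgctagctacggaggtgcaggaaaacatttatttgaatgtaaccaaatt
Il21, chr3:37232587-37232886, minus strand: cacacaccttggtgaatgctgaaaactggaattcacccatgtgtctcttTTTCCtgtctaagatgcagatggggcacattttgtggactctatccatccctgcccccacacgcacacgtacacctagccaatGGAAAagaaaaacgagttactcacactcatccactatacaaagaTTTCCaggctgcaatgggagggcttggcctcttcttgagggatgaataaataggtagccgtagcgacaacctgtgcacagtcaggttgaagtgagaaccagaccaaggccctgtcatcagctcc
Ascl2, chr7:142969215-142969514, minus strand: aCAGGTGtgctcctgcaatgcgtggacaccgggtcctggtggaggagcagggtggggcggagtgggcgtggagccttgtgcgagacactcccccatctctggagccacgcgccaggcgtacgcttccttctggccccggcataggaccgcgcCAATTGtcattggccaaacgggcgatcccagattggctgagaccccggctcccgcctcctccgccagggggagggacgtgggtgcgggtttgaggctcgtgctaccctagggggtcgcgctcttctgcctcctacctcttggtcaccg
The Bcl6 windows hold 1 and 3 TTCNNNGAA motifs, a motif found in 8.30% of all 32851 windows. The other 9 windows of members hold none of it. The Il21 window holds 3 GGAAA motifs and the Ascl2 window 2 CANNTG motifs, but these short motifs stand in 61.3% and 72.3% of all windows. TGANTCA, the AP-1 type of site, was in 7.81% of all windows and in 0 of the 11. A match describes the letters of a window and is not a shown binding site.

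Some arrays went against their labels or stood apart. Foxp3, the defining factor of regulatory cells, read 33.8 in Furin cKO and 50.4 in WT cells labelled regulatory, near the level counted as background, but 1116.4 in Furin cKO and 1358.2 in WT cells labelled memory. Other regulatory markers ran with the labels: Il2ra read 3702.1 in Furin cKO and 4276.9 in WT regulatory cells, against 626.8 in memory cells labelled Furin cKO and 1190.3 in those labelled WT. The Furin probe set, whose position within the gene the sources used here do not give, read 2202.9 in memory cells labelled Furin cKO and 647.4 in those labelled WT, the opposite of a loss. In activated cells it read 468.3 in Furin cKO and 515.8 in WT, and in regulatory cells 410.0 in Furin cKO and 547.2 in WT. The names memory, regulatory, Furin cKO and WT below are therefore those of the labels. Activated arrays had fewer probe sets at or above background (49.4% to 49.8%) than memory arrays (62.6% to 65.2%) and regulatory arrays (65.8% to 67.4%), and lower signals of the hybridisation control bioB (753.8 to 852.3 against 2213.0 to 4930.3 on the others). The beta-actin ratio of 3′ over 5′ signal, which grows as RNA is degraded, was 1.56 in memory cells labelled Furin cKO and 1.93 in those labelled WT, and 1.22 to 1.36 on the other arrays. The sample labels name no array run, so whether these array differences follow a run is not known. The activated arrays' lower share of probe sets at or above background, and lower bioB signals, cannot be told apart from their population. Background was set at a floor of 47.6, the 40th percentile of all signals, and lower signals were set to it on the log2 scale.

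Bcl6 (Entrez Gene 12053, chromosome 16), the factor that sets the follicular helper fate, read 297.7 in Furin cKO and 242.0 in WT activated cells, 577.4 in memory cells labelled Furin cKO and 967.8 in those labelled WT, and 790.3 in Furin cKO and 616.8 in WT regulatory cells. Both activated arrays lay below the other 4, and the memory and regulatory arrays overlapped. Ascl2 (Entrez Gene 17173, chromosome 7), a basic helix-loop-helix factor that promotes Cxcr5 expression, read 67.1 in memory cells labelled Furin cKO and 235.2 in those labelled WT. Elsewhere it was below the floor, at 7.5 in Furin cKO and 4.1 in WT activated cells, and at 24.7 in Furin cKO and 40.6 in WT regulatory cells.

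Tox and Tox2 encode related high-mobility-group factors, and both support the follicular helper programme. Tox (Entrez Gene 252838, chromosome 4) read 221.7 in Furin cKO and 254.3 in WT activated cells, 857.5 in memory cells labelled Furin cKO and 1032.7 in those labelled WT, and 2938.3 in Furin cKO and 3139.6 in WT regulatory cells. On this probe set the order was activated, memory, regulatory with no overlap, but the 2 other probe sets of Tox, described further on, overlapped between populations. Tox2 (Entrez Gene 269389, chromosome 2) read 66.4 in Furin cKO and 86.1 in WT activated cells, 5374.5 in memory cells labelled Furin cKO and 4132.2 in those labelled WT, and 1734.8 in Furin cKO and 1592.8 in WT regulatory cells. Its populations did not overlap either, but memory stood above regulatory, the reverse of Tox.

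Cxcr5 (Entrez Gene 12145, chromosome 9), the receptor for the follicle chemokine CXCL13, read 97.2 in Furin cKO and 55.5 in WT activated cells, 1549.4 in memory cells labelled Furin cKO and 2576.7 in those labelled WT, and 1501.3 in Furin cKO and 1874.8 in WT regulatory cells. The activated signals were just above the floor, and the other 4 arrays overlapped between memory and regulatory. Cxcr5 is also carried by B cells. The summed signal of 11 B cell markers was 2758.7 in Furin cKO and 2841.5 in WT activated cells, 14511.3 in memory cells labelled Furin cKO and 16642.8 in those labelled WT, and 16690.5 in Furin cKO and 19100.7 in WT regulatory cells. Ighm was the brightest of them, at 9364.8 in memory cells labelled Furin cKO and 12987.0 in those labelled WT. In regulatory cells Ighm read 13927.8 in Furin cKO and 16773.2 in WT. The median log2 difference over the 11 markers, regulatory minus memory, was -0.78, while that of Ighm was 0.47. At or above the floor were 3 of the 11 on either activated array, 11 and 9 in memory cells labelled Furin cKO and WT, and 10 and 9 in Furin cKO and WT regulatory cells. Their part in the levels of Cxcr5 and Bcl6 was not tested. Of 6 germinal centre B cell markers, 3 were at or above the floor on either activated array. In memory cells labelled Furin cKO and WT 2 and 3 were, and in Furin cKO and WT regulatory cells 4 and 2. Among them Rgs13 was below the floor on every array, while Fas and S1pr2 were above it on all 6.

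**Figure D1:**
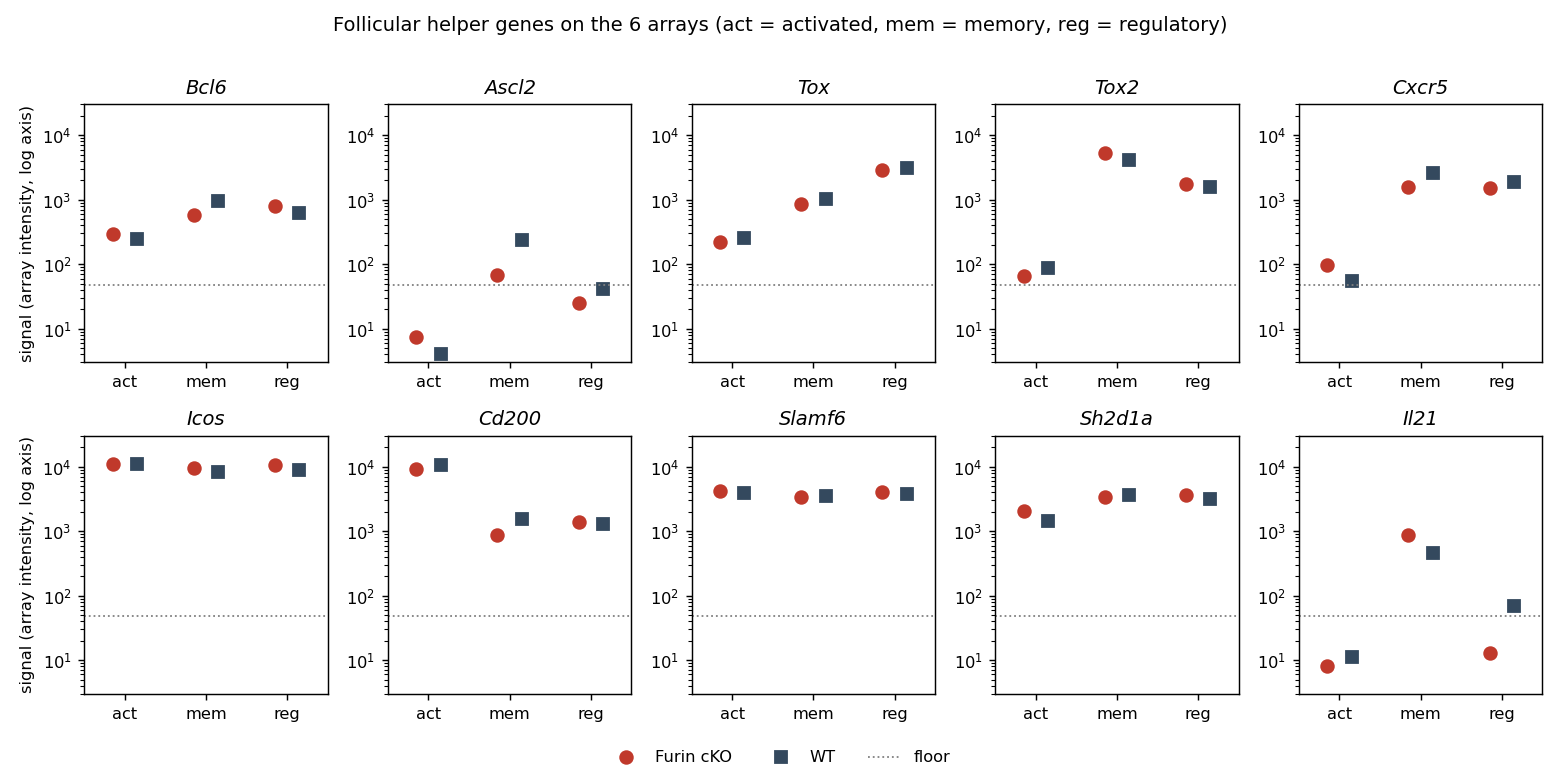
Signals of the 10 follicular helper genes on the 6 arrays, on a log axis, with 1 panel per gene. Points are single arrays, Furin cKO left of WT within each population, and the broken line is the floor of 47.6. Il21 and Ascl2 are above the floor only in memory cells, apart from Il21 at 69.5 in WT regulatory cells.

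Icos (Entrez Gene 54167, chromosome 1), the costimulatory receptor needed for follicular helper cells to form and persist, was bright on all arrays. It read 10972.1 in Furin cKO and 11188.3 in WT activated cells, 9470.8 in memory cells labelled Furin cKO and 8317.3 in those labelled WT, and 10549.1 in Furin cKO and 8887.2 in WT regulatory cells. On this probe set the activated arrays were highest, by a small margin, but on the 2 other probe sets of Icos, described further on, they were lowest. Slamf6 (Entrez Gene 30925, chromosome 1) is a SLAM family receptor of T and B cell contact. On its chosen probe set it lay between 3393.4 and 4133.4 on all 6 arrays, with the 3 populations overlapping. On a second probe set the activated arrays, at 1970.8 in Furin cKO and 2126.4 in WT, lay below all memory and regulatory arrays (2369.7 to 3369.1). On the remaining one the regulatory arrays overlapped with both other populations. Sh2d1a (Entrez Gene 20400, chromosome X), which encodes SAP, the adaptor below SLAM receptors, read 2067.1 in Furin cKO and 1452.5 in WT activated cells, 3424.8 in memory cells labelled Furin cKO and 3657.1 in those labelled WT, and 3652.2 in Furin cKO and 3165.0 in WT regulatory cells. Memory and regulatory cells overlapped, and both activated arrays lay below them.

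Cd200 (Entrez Gene 17470, chromosome 16), a membrane glycoprotein that engages an inhibitory receptor on myeloid cells, had the opposite order. It read 9223.8 in Furin cKO and 10457.1 in WT activated cells, 888.5 in memory cells labelled Furin cKO and 1571.3 in those labelled WT, and 1369.6 in Furin cKO and 1271.9 in WT regulatory cells. Il21 (Entrez Gene 60505, chromosome 3), the cytokine product, read 868.4 in memory cells labelled Furin cKO and 465.5 in those labelled WT. It was below the floor in activated cells, at 8.0 in Furin cKO and 11.1 in WT, and in regulatory cells it read 12.9 in Furin cKO and 69.5 in WT. In memory cells all 10 genes were above the floor on both arrays, with Ascl2 in those labelled Furin cKO, at 67.1, near it. On either activated array 8 were, in Furin cKO regulatory cells 8 and in WT regulatory cells 9. Of all probe sets, 62.6% to 65.2% were at or above the floor on memory arrays. The shares were 49.4% to 49.8% on activated and 65.8% to 67.4% on regulatory arrays.

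Activated cells differed from memory cells in 7 of the 10 genes, 6 lower and 1 higher. The test was limma with population and genotype as terms over all 6 arrays and Benjamini-Hochberg adjustment over 15811 genes, and a gene past an adjusted p of 0.05 is called. In this contrast 44.3% of all genes were called, 26.9% lower and 17.3% higher, and 51.5% had an unadjusted p below 0.05, as had the same 7 of the 10. The fit has 2 residual degrees of freedom, and its p-values rest on the disagreement between populations about the genotype difference, not on the spread between animals. Tox2 was 62.3-fold lower in activated than in memory cells (log2 difference -5.96, SE 0.23, adjusted p = 0.001885) and Cxcr5 27.2-fold lower (log2 -4.77, SE 0.41, adjusted p = 0.002849). Both had their activated signals near the floor, so the size rests on dim values. Il21, below the floor in activated cells, was at least 13.4-fold lower there (adjusted p = 0.003828).

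Among the brighter genes, Tox was 3.96-fold lower in activated than in memory cells (log2 -1.99, SE 0.14, adjusted p = 0.002127), a size that depends on the probe set. Bcl6 was 2.79-fold lower (log2 -1.48, SE 0.33, adjusted p = 0.02636) and Sh2d1a 2.04-fold lower (log2 -1.03, SE 0.20, adjusted p = 0.01731). Cd200 was 8.31-fold higher in activated cells (log2 3.06, SE 0.27, adjusted p = 0.002918). Differences were not called for Ascl2 (log2 -1.40, 95% interval -2.83 to 0.03), Icos (0.32, -0.09 to 0.73) and Slamf6 (0.21, -0.17 to 0.59). The sign for Icos turned when its probe sets were averaged, as described further on. The median over the 10 genes was -1.44 on the log2 scale, against -0.21 over all genes. With 1 array left out at a time, 2 to 7 of the 10 were called: 4 without WT activated cells, 3 without Furin cKO regulatory cells and 2, Tox and Tox2, without WT regulatory cells. Sh2d1a was called in none of these 6 fits. Bcl6 was not called with quantile normalization (adjusted p = 0.07638) or with the floor at 13.3 (adjusted p = 0.05074), and at that floor Ascl2 was called (adjusted p = 0.02025). Markers of other cells were lower in activated cells too: 8 of 11 B cell markers, 11 of 14 of myeloid and dendritic cells (median -3.21) and 5 of 7 of NK and innate-like cells (median -4.86) were called lower and 0 higher. Their part in these differences was not tested.

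Against regulatory cells, activated cells differed in 6 of the 10 genes, 5 lower and 1 higher, where 44.6% of all genes were called, 26.5% lower and 18.1% higher, and 52.3% had an unadjusted p below 0.05. The lower genes were Tox2 (log2 -4.46, adjusted p = 0.002017), Cxcr5 (22.8-fold, log2 -4.51, adjusted p = 0.00332), Tox (12.8-fold, log2 -3.68, adjusted p = 0.001817), Bcl6 (2.60-fold, log2 -1.38, adjusted p = 0.03197) and Sh2d1a (1.96-fold, log2 -0.97, adjusted p = 0.02065). Cd200 was 7.44-fold higher in activated cells (log2 2.90, adjusted p = 0.003398). Icos, Slamf6 and Il21 were not called, at log2 differences of 0.19, 0.03 and -0.27, and Ascl2 was below the floor on all 4 arrays. This contrast shares the activated arrays with the previous one, so the 2 results are not independent. None of the 10 stayed called when either regulatory array was left out, a setting in which 0 of all genes were called although 6151 or 6348 had an unadjusted p below 0.05. Without WT activated cells, 3 of the 10 were called, and Bcl6 was not called after quantile or loess normalization (adjusted p = 0.1053 and 0.06909) or with the floor at 13.3 (adjusted p = 0.05727). Called lower were also 5 of 11 B cell markers, 7 of 14 myeloid and dendritic cell markers and 3 of 7 NK and innate-like markers, and their part was not tested.

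Regulatory cells differed from memory cells in 0 of the 10 genes by limma, and in 0.00% of all genes, although 3 of the 10 and 21.2% of all genes had an unadjusted p below 0.05. The 3 were Tox, Tox2 and Il21. Tox was 3.23-fold higher in regulatory than in memory cells (log2 1.69, 95% interval 1.31 to 2.07, adjusted p = 0.05365), but 1.07 on the log2 scale when its probe sets were averaged (adjusted p = 0.09591). Tox2 was 2.84-fold lower in regulatory cells (log2 -1.50, SE 0.23, adjusted p = 0.08469). Il21 was lower in regulatory cells (log2 -3.47 with signals below the floor set to it, adjusted p = 0.0668). For Bcl6 and Cxcr5, shared with follicular regulatory cells, the differences were -0.10 (SE 0.33) and -0.25 (SE 0.41). Tox, Tox2 and Il21 crossed the threshold under some other settings, listed in the closing section, and no member was called with any 1 array left out. The arrays compared here are those on which Foxp3 ran against the labels. The CD25 gene Il2ra and Ctla4 ran with them, and the part of this disagreement in the 3 differences was not tested. Markers of other cells differed in the same contrast: the median was -2.94 over 7 NK and innate-like markers and -1.52 over 14 myeloid and dendritic cell markers, with 5 and 12 of them at an unadjusted p below 0.05, and their part was not tested.

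**Figure D2:**
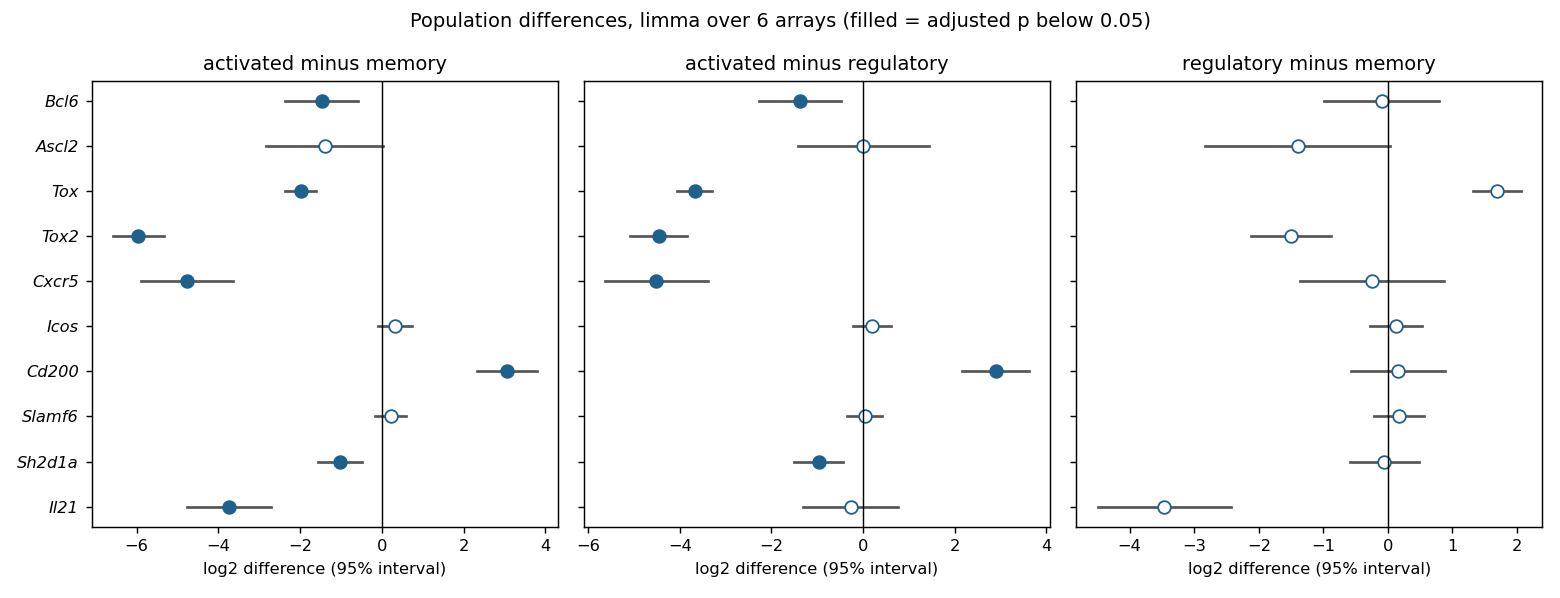
Log2 differences between populations from the limma fit for each follicular helper gene, with 95% intervals, for activated minus memory, activated minus regulatory and regulatory minus memory. Tox2 and Cxcr5 lie farthest below 0 in both contrasts of activated cells, Cd200 is the one gene called above 0, and the regulatory minus memory differences of Tox (1.69) and Tox2 (-1.50) point opposite ways.

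Populations separated these genes more than genotypes did. The range of the 3 population means was larger than the largest genotype difference in 9 of the 10 genes, against 66.4% of the 15811 genes tested, with Ascl2 as the exception. The median range of population means was 2.27 on the log2 scale, against 0.84 over all genes. The median of the largest genotype difference was 0.63, against 0.44 over all genes.

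The 3 widest differences between genotypes, those of Ascl2, Il21 and Cd200, were seen in memory cells. Of the 10 genes, 7 were lower and 3 higher in memory cells labelled Furin cKO than in those labelled WT, where 50.7% of 14235 measured genes were lower and 49.2% higher. Only Ascl2 passed 2-fold, 3.51-fold lower at 67.1 against 235.2 (log2 -1.81). Of all genes 3.64% were at least 2-fold lower, 5.62% at least 2-fold higher and so 9.26% either way, and 1.27% differed by as much as Ascl2. The median over the 10 genes was -0.18, against -0.01 over all genes. With the floor at 144.8 the difference of Ascl2 was -0.70, and averaged over its probe sets it was -0.60. With 1 array per genotype these are descriptions of a pair of arrays, with no test.

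On their chosen probe sets Bcl6, Cxcr5 and Cd200 were all lower in memory cells labelled Furin cKO, but the second Bcl6 probe set was higher (log2 0.44). By the chosen probe sets Bcl6 was 1.68-fold lower (577.4 against 967.8, log2 -0.75), Cxcr5 1.66-fold lower (1549.4 against 2576.7, log2 -0.73) and Cd200 1.77-fold lower (888.5 against 1571.3, log2 -0.82). Of all genes measured in memory cells, 14.5% to 18.0% differed by as much as these 3. Il21, the product, ran the other way on its chosen probe set and was 1.87-fold higher (868.4 against 465.5, log2 0.90). Its second probe set was lower (log2 -0.32). Tox2 was 1.30-fold higher (log2 0.38), while Tox (-0.27), Icos (0.19), Sh2d1a (-0.09) and Slamf6 (-0.07) differed less. The Furin signal went against both genotype labels of memory cells, so the direction of each of these differences is only that of the labels.

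Markers of other cells moved in the same pair of memory arrays. B cell markers were higher in 7 of 11 in memory cells labelled Furin cKO (median log2 0.67), although their summed signal, in which Ighm is the brightest, was 14511.3 against 16642.8. Markers of myeloid and dendritic cells were lower in 10 of 14 (median -0.58, 25973.2 against 43233.7), and those of NK and innate-like cells lower in 5 of 7 (median -0.59, 8975.8 against 15211.1). Granulocyte markers were higher in 8 of the 8 measured (7690.1 against 790.0). The beta-actin ratio was 1.56 in memory cells labelled Furin cKO and 1.93 in those labelled WT. The part of these markers and of RNA quality in the differences of the follicular helper genes was not tested. In such bulk samples fewer cells of a type and less RNA per cell cannot be told apart.

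**Figure D3:**
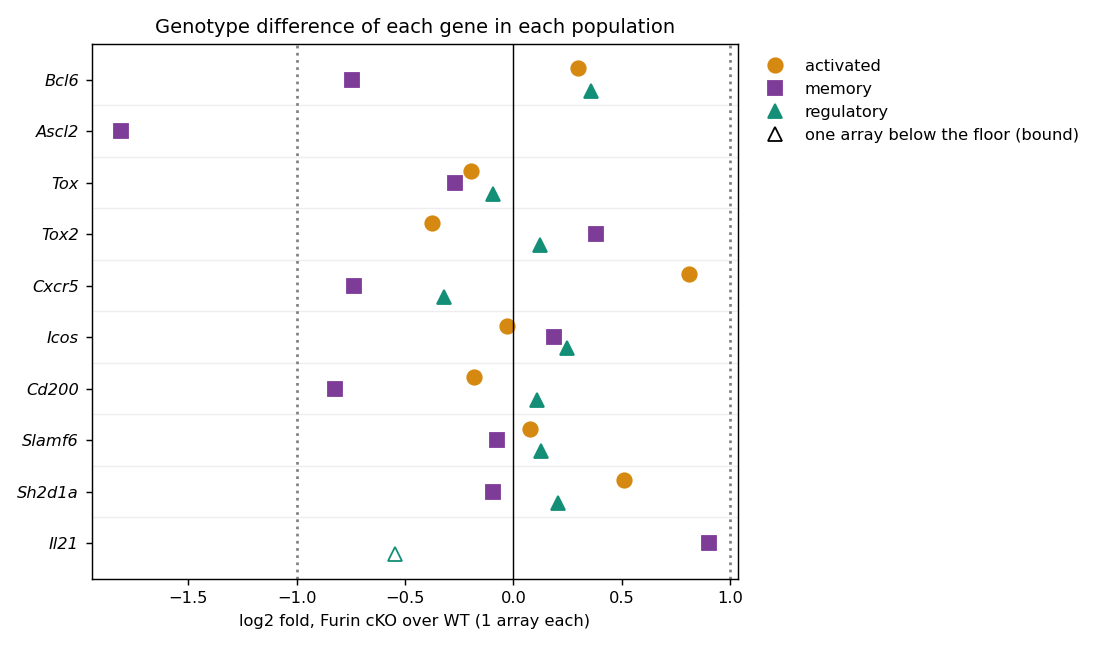
Log2 fold of Furin cKO over WT for each follicular helper gene in activated, memory and regulatory cells, 1 array per genotype. Broken lines mark 2-fold, and a gene below the floor on both arrays has no point. Ascl2 in memory cells (-1.81) is the one point past 2-fold, and Cxcr5 lies above 0 in activated cells (0.81) and below it in memory cells (-0.73).

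In activated cells 8 of the 10 genes were measured, with Ascl2 and Il21 below the floor on both arrays. Of the 8, 4 were higher and 4 lower in Furin cKO, where 48.9% and 51.0% of 10756 measured genes were, and 0 passed 2-fold. Of all genes 0.762% did, 0.390% higher and 0.372% lower. Cxcr5 differed most, 1.75-fold higher (97.2 against 55.5, log2 0.81), a size reached by 1.67% of all genes, but both signals were close to the floor. Sh2d1a was 1.42-fold higher in Furin cKO (2067.1 against 1452.5, log2 0.51) and Bcl6 1.23-fold higher (297.7 against 242.0, log2 0.30). Tox2 was 1.30-fold lower (66.4 against 86.1), and Tox (-0.20), Cd200 (-0.18), Icos (-0.03) and Slamf6 (0.08) differed less. The median was 0.02, against -0.00 over all genes.

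In regulatory cells 9 of the 10 were measured, 6 higher and 3 lower in Furin cKO, where 48.0% and 51.9% of 14590 genes were, and 0 passed 2-fold. Of all genes 5.26% did, 3.14% higher and 2.12% lower. Bcl6 was 1.28-fold higher (790.3 against 616.8, log2 0.36) and Cxcr5 lower by 0.32 on the log2 scale (1501.3 against 1874.8). Il21 was at least 1.46-fold lower, with 12.9 in Furin cKO and 69.5 in WT, a bound set by the floor. Icos (0.25), Sh2d1a (0.21), Slamf6 (0.13), Tox2 (0.12), Cd200 (0.11) and Tox (-0.10) differed less. The median was 0.12, against -0.02 over all genes. In the same pair 6 of 7 granulocyte markers were higher in Furin cKO (median 1.13) and 3 of 3 erythroid markers at least 2-fold lower. Of 8 plasma cell markers 3 were higher and 5 lower in Furin cKO (median -0.09). Their summed signal was 15891.2 in Furin cKO and 24140.3 in WT, of which Igha alone was 5947.4 in Furin cKO and 13170.1 in WT. The part of all these markers was not tested.

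Over the 3 populations together, Furin cKO and WT cells differed in 0 of the 10 genes by limma, with adjusted p-values of 0.8192 to 0.9789 and 0 of the 10 below an unadjusted p of 0.05. The same fit called 0.00% of all genes, with 2.81% below an unadjusted 0.05. The widest estimates were those of Ascl2 (log2 -0.60, 95% interval -1.77 to 0.57) and Cd200 (-0.30, -0.89 to 0.29). For Bcl6 the estimate was -0.03 (-0.76 to 0.70), an average over populations in which its sign differed. The fit includes the memory pair, on which Furin ran against the genotype labels. With 1 of the memory arrays left out the estimate, then from activated and regulatory cells alone, was 0.33 for Bcl6, 0.24 for Cxcr5, -0.27 for Il21 and -0.13 for Tox2, all opposite in sign to the estimate from 6 arrays, and 0 of the 10 genes were called.

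Other probe sets of the same genes often disagreed about genotype. In activated cells 6 other probe sets were measured, and 6 of the 6 ran opposite to the chosen one. In memory cells 5 of 9 ran the same way, and in regulatory cells 5 of 7 did. The second Bcl6 probe set read 172.8 in memory cells labelled Furin cKO and 127.4 in those labelled WT, a log2 difference of 0.44 where that of the chosen one was -0.75. It read 177.1 in Furin cKO and 96.9 in WT regulatory cells (log2 0.87) and was below the floor in activated cells. The second Il21 probe set read 75.8 in memory cells labelled Furin cKO and 94.6 in those labelled WT, against the direction of the first. The 2 other probe sets of Tox were both lower in memory cells labelled Furin cKO (-0.43 and -0.70), and those of Slamf6 were too (-0.38 and -0.91). The 2 others of Ascl2 were below the floor on every array, so its difference rests on 1 probe set. Cxcr5, Sh2d1a and Cd200 have 1 probe set each.

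Probe sets of Tox disagreed about the size of its population differences. The second read 551.4 in Furin cKO and 419.5 in WT activated cells, 505.6 in memory cells labelled Furin cKO and 682.9 in those labelled WT, and 1486.8 in Furin cKO and 1285.0 in WT regulatory cells, so that activated and memory cells overlapped. The last read 131.0 in Furin cKO and 94.0 in WT activated cells, 594.5 in memory cells labelled Furin cKO and 964.4 in those labelled WT, and 819.8 in Furin cKO and 1034.4 in WT regulatory cells, so that regulatory and memory cells overlapped. With the mean of its 3 probe sets, Tox was lower in activated than in memory cells (log2 -1.68, adjusted p = 0.005601) and than in regulatory cells (log2 -2.75, adjusted p = 0.0024).

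For Icos the probe sets disagreed about the direction between populations. The 2 dimmer ones were lower in activated cells, and the brighter of them read 3342.2 in Furin cKO and 3312.7 in WT activated cells, against 8516.0 in memory cells labelled Furin cKO and 9173.4 in those labelled WT. The other read 1908.5 in Furin cKO and 1753.7 in WT activated cells, against 4283.6 in memory cells labelled Furin cKO and 4001.9 in those labelled WT. With the mean of its 3 probe sets Icos was lower in activated than in memory cells (log2 -0.76, adjusted p = 0.01163) and lower than in regulatory cells (log2 -0.89, adjusted p = 0.007662), opposite in sign to the values of the brightest probe set. The direction of Icos between populations is therefore not settled by these arrays.

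Genes around the follicular helper programme were described from 6 lists, whose counts stand beside 26.9% of all genes called lower and 17.3% higher in activated than in memory cells (median -0.21). Of the cytokine receptors and STAT factors that induce it, 3 of 6 were called lower and 0 higher in activated than in memory cells. Il27ra, the interleukin 27 receptor, was lower (log2 -2.45, adjusted p = 0.002406), as was Il6st, the shared gp130 chain (log2 -1.54, adjusted p = 0.00769), while Il6ra, at -1.09, was not called (adjusted p = 0.06869). Supporting transcription factors split, with 4 of 11 higher and 6 lower. Pou2af1, a coactivator with a role in B cells and follicular helper cells, was 3392.6 in Furin cKO and 3845.5 in WT activated cells, against 432.7 in memory cells labelled Furin cKO and 373.3 in those labelled WT (log2 3.17, adjusted p = 0.002008). Irf4, induced by T cell receptor signals, was also higher (log2 3.05, adjusted p = 0.002008). Maf, which promotes Il21 transcription, was below the floor in activated cells at 16.0 in Furin cKO and 20.5 in WT, against 6916.1 in memory cells labelled Furin cKO and 6187.8 in those labelled WT.

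Of the factors that restrain the follicular helper fate, 12 of 16 were called lower in activated than in memory cells and 1 higher (median -1.63). Prdm1, the antagonist of Bcl6, was 18.5 in Furin cKO and 26.4 in WT activated cells, both below the floor, against 1312.1 in memory cells labelled Furin cKO and 1166.4 in those labelled WT. Klf2, which maintains the egress receptor S1pr1, was lower (log2 -6.45, adjusted p = 0.001885), as was Il7r, the interleukin 7 receptor (log2 -6.11, adjusted p = 0.001734). Contact and costimulatory molecules were lower in 8 of 14 and higher in 4, with P2rx7 at -5.09 and Izumo1r at -2.07 on the low side and Ctla4 at 1.82 on the high side. Positioning receptors were lower in 6 of 10 and higher in 1, among them Cxcr3 (-6.64), S1pr1 (-3.97) and Cxcr4, which was below the floor in activated cells. Secreted products were lower in 4 of 5, with Il4, the germinal centre cytokine, at 27.1 in Furin cKO and 25.7 in WT activated cells, against 427.7 in memory cells labelled Furin cKO and 1408.3 in those labelled WT. Cxcl10 and Sostdc1 were also below the floor in activated cells.

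Against regulatory cells, where 18.1% of all genes were called higher and 26.5% lower in activated cells (median -0.23), the same lists held 0 higher and 3 lower of 6 for inducing receptors and STATs, 4 and 6 of 11 for supporting factors, 1 and 11 of 16 for restraining factors, 2 and 5 of 14 for contact molecules, 0 and 6 of 10 for positioning receptors, and 0 and 2 of 5 for secreted products. Among genes above the floor on all arrays, the log2 difference was -6.14 for Klf2, -5.18 for Socs3, -5.07 for Cxcr3, -4.81 for Il7r and S1pr1 and -4.64 for P2rx7. Maf, Prdm1 and Cxcr4 were below the floor in activated cells, so that the values of -7.17, -5.38 and -5.32 are bounds set by the floor. Pou2af1 was higher in activated cells (log2 3.86, adjusted p = 0.001926). Between regulatory and memory cells limma called 0 genes of these lists, while 2 of 6, 6 of 11, 9 of 16, 6 of 14, 6 of 10 and 4 of 5, in the same order of lists, had an unadjusted p below 0.05, as had 21.2% of all genes. Wide differences, not called, were lower Id2 (-3.84), Sostdc1 (-3.82), Il4 (-3.06) and Tbx21 (-2.90) in regulatory cells and higher Il2ra (2.20), Ctla4 (1.79) and Il21r (1.13), with adjusted p-values of 0.05179 to 0.0863. The NK, innate-like, myeloid and dendritic cell markers given above moved the same way as the lower genes, and their part was not tested.

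**Figure D4:**
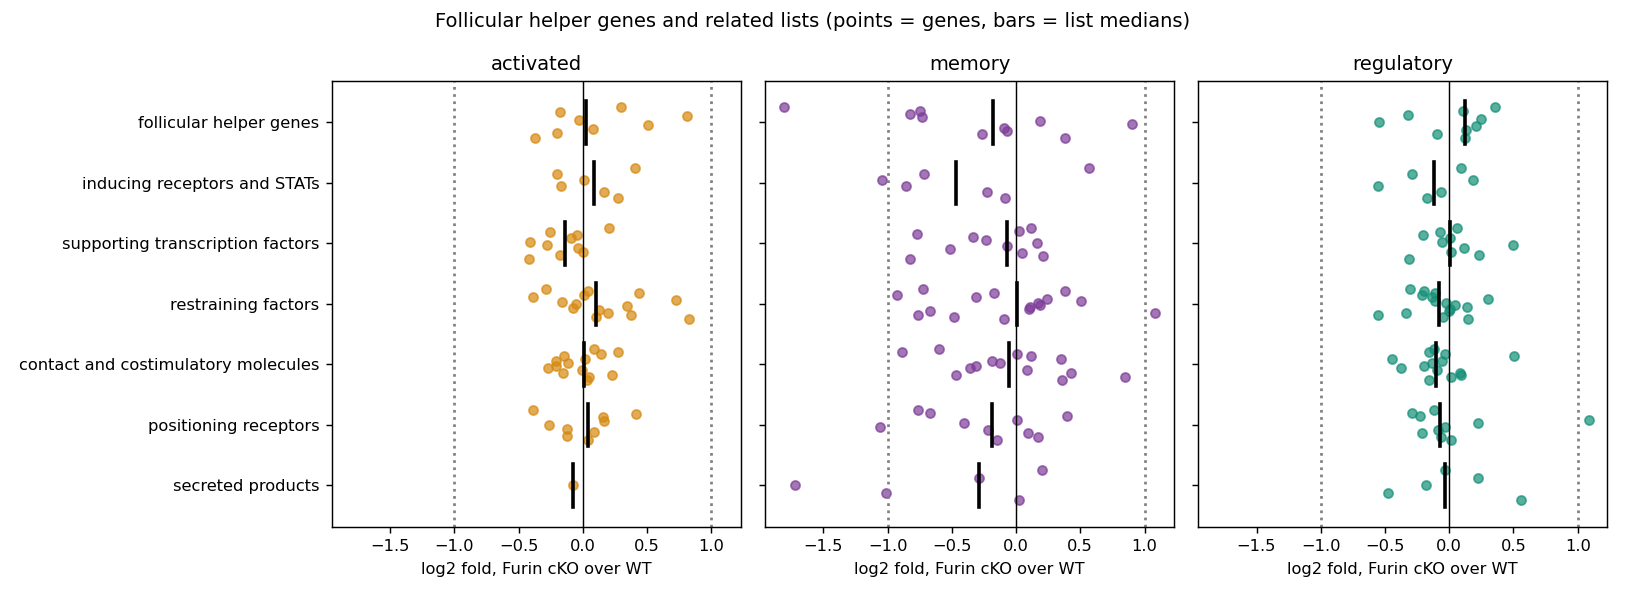
Log2 fold of Furin cKO over WT for the follicular helper genes and the 6 lists around them, in activated, memory and regulatory cells. Points are genes and bars are list medians, and genes below the floor on both arrays are left out. In memory cells Il4 (-1.72) among the secreted products and Ascl2 (-1.81) among the follicular helper genes lie lowest, and in activated cells no gene of these lists passes 2-fold.

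Between genotypes, the inducing receptors and STATs had a median of -0.47 in memory cells, with 5 of 6 lower in cells labelled Furin cKO. Over all 14235 genes measured there the median was -0.0063, with 50.7% lower and 9.26% at least 2-fold different either way. Since Furin ran against the labels of this pair, each memory direction here is that of the labels and would turn if they were exchanged. Il6ra was 435.6 in memory cells labelled Furin cKO and 898.3 in those labelled WT, Il6st 1452.6 in those labelled Furin cKO and 2634.1 in those labelled WT, and Il27ra 3023.2 in those labelled Furin cKO and 4954.6 in those labelled WT. Il21r, the receptor for the product of Il21, was the exception (log2 0.57). Of all genes measured in memory cells, 8.4% differed by as much as Il6ra, 13.1% as Il6st and 19.0% as Il27ra. Secreted products had a median of -0.29, with Il4 at 427.7 in memory cells labelled Furin cKO and 1408.3 in those labelled WT (log2 -1.72) and Sostdc1 at 621.6 in those labelled Furin cKO and 1251.8 in those labelled WT (log2 -1.01). Medians of the other lists lay between -0.18 and 0.00. Among their larger differences were those of the follicle positioning receptor Gpr183 (-1.06), the cytokine feedback gene Socs3 (1.08, 3283.9 against 1552.0), Il2ra (-0.93, 626.8 against 1190.3), Cd226 (-0.89), Slamf1 (3954.7 against 2201.7) and Zbtb7b (-0.82). A difference as large as that of Gpr183 was seen in 8.09% of all genes, and as that of Il4 in 1.64%. Markers of other cells, given above, moved in this pair too, and their part was not tested.

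In activated cells list medians lay between -0.14 and 0.10, against -0.0048 over all genes. Tbx21, which encodes the type 1 helper factor T-bet, was 2140.0 in Furin cKO and 1207.6 in WT (log2 0.83), and Il7r was 372.2 in Furin cKO and 225.4 in WT (log2 0.72). In regulatory cells medians lay between -0.12 and 0.01, against -0.015 over all genes. Cxcr4, the receptor of the germinal centre dark zone chemokine, was 2766.8 in Furin cKO and 1302.8 in WT (log2 1.09), the one gene of these lists past 2-fold there. Of all genes measured in regulatory cells 5.26% passed 2-fold either way, and 4.0% differed by as much as Cxcr4. Maf was 8122.0 in Furin cKO and 5763.7 in WT (log2 0.49), and Tnfsf8 was 860.6 in Furin cKO and 585.3 in WT (log2 0.56). Pdcd1, which encodes the follicular helper marker PD-1, was 3129.5 in Furin cKO and 2678.6 in WT activated cells, 1396.1 in memory cells labelled Furin cKO and 1935.0 in those labelled WT, and 1509.3 in Furin cKO and 1416.5 in WT regulatory cells.

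Some genes followed a member closely across the arrays. Likeness is Pearson's r of log2 signal over the 6 arrays, among 10349 genes whose brightest array reached 144.8; the arrays come in 3 pairs of 1 population, so a high r mostly repeats the order of populations and is a description. Cxcr5 was followed most closely by Gsap, and then by Gse1 and H2aw (r of 0.999 each), and among the 71 genes of the lists by Stat3 (0.994), Selplg (0.990) and Maf (0.983). For Bcl6 the nearest were Ppp1r37, Sertad1 and Clasrp (0.997 to 0.998), and among the lists Stat3 (0.972), Il6ra (0.961) and Cxcr5 (0.961). Il21 was nearest to Pttg1, Zfp11 and Ryr1 (0.995 to 0.996) and, among the lists, to Ly9 (0.992), Id2 (0.976) and Sostdc1 (0.954). Ascl2, high in memory cells labelled WT alone, was nearest to Pir, P2ry6 and Nucb1 (0.997 to 0.999) and, among the lists, to Il4 (0.905), Cd226 (0.883) and Sostdc1 (0.864).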

How the data were processed

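Gene expression in 6 samples of mouse CD4 T cells was measured on Affymetrix 3' expression arrays. Per the submitters' processing notes, the deposited intensity values were made with MAS5 (version and settings not given in the sources used here). On each array the mean intensity after trimming 2% of probe sets at each end was 500. Of 45101 probe sets, 64 are controls, 34945 carry 1 gene symbol, 932 several and 9160 none, and only those with 1 were used. The Entrez identifiers of 34741 matched a RefSeq gene table of GRCm38.p6, used for names.

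Signals below the pooled 40th percentile (47.6) were raised to it before log2. A genotype fold was given where at least 1 array of the pair was above it. The limma 3.58.1 fit (R 4.3.3, Python 3.11.15) used all 6 arrays with population and genotype, empirical Bayes and Benjamini-Hochberg adjustment over 15811 genes. It was also run on simulated data with independent noise, which cannot show how far its p-values hold for these unreplicated arrays. The number of arrays limits the precision. The 10 genes, the lists and the rule for named genes were chosen with earlier results of these data known. Named were all 10 genes, genes needed to describe a list or a label, and the 3 genes most like Bcl6, Cxcr5, Il21 and Ascl2. Genes from among the largest differences of the lists in a comparison were also named, but not those of every list in every comparison. Some genes of the lists were not analysed here. Alternatives were 2 other floors, quantile and cyclic loess normalization, averaging each gene's probe sets, a fit without the genotype term, an intensity trend with robust prior, and each array left out.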

Additional observations from a re-analysis of the deposited data

Results flagged for a closer look

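In 4 genes, and 6 comparisons of populations, the difference between the Furin cKO and WT arrays had opposite signs in one population and another, by at least 1.2-fold each way, and the difference between those differences was not tested. For Bcl6 it was lower by 1.68-fold in memory cells labelled Furin cKO (577.4 against 967.8) and higher by 1.28-fold in Furin cKO regulatory cells (790.3 against 616.8), which is -1.10 for memory minus regulatory on the log2 scale. In Furin cKO activated cells Bcl6 was also higher, by 1.23-fold (297.7 against 242.0), which is 1.04 for activated minus memory. For Cxcr5 it was 1.75-fold higher in Furin cKO activated cells (97.2 against 55.5) and 1.66-fold lower in memory cells labelled Furin cKO (1549.4 against 2576.7), a gap of 1.54 for activated minus memory. It was lower in Furin cKO regulatory cells too (1501.3 against 1874.8), a gap of 1.13 for activated minus regulatory. Il21 was 1.87-fold higher in memory cells labelled Furin cKO and at least 1.46-fold lower in Furin cKO regulatory cells, a gap of 1.45 for memory minus regulatory. For Tox2 the gap was -0.75 for activated minus memory, with 66.4 in Furin cKO and 86.1 in WT activated cells and 5374.5 in memory cells labelled Furin cKO against 4132.2 in those labelled WT. All but the gap between activated and regulatory cells involve the memory arrays, on which the Furin signal ran against the genotype labels. The gaps of Bcl6, Il21 and Tox2 also rest on the chosen probe set. The second Bcl6 probe set was higher in Furin cKO in both memory (log2 0.44, by the labels) and regulatory cells (0.87). In memory cells labelled Furin cKO the second Il21 probe set was lower (-0.32), as was that of Tox2 (-0.19, near the floor). These second probe sets were below the floor in activated cells.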

How the results depend on the processing

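No paired analysis was possible because each combination of population and genotype has 1 array; population and genotype are already terms of the fit. Between activated and memory cells, the count of follicular helper genes called (7) was 6 to 8 under the other processing settings and 2 to 7 with 1 array left out. Between activated and regulatory cells it was 6, with 5 to 7 under other settings and 0 to 6 with 1 array left out. Between regulatory and memory cells it was 0, but 3 (Il21, Tox and Tox2) with the floor at the 60th percentile, without the genotype term, or with an intensity trend and robust prior, and 1 (Tox) with cyclic loess; all genes called there were 0, against 448, 653, 566 and 96. Averaging probe sets gave 34. Between genotypes over the 3 populations 0 were called under all settings. Members past 2-fold between genotypes in memory cells were 1, but 0 with the floor at the 60th percentile or the mean of probe sets and 2 with quantile normalization; in regulatory cells they were 0, but 1 with the floor at the 20th. The median fold was 0.02 in activated cells, -0.019 with quantile and -0.017 with loess normalization, and 0.093 with the mean of probe sets; with that mean it was -0.30 in memory and 0.062 in regulatory cells. Of the single estimates, these turned sign. Activated minus memory: Icos -0.76 (mean of probe sets) and Slamf6 -0.0099 (quantile). Activated minus regulatory: Icos -0.049 (loess) and -0.89 (mean of probe sets), Il21 0.89 (loess), Slamf6 -0.22 (quantile), -0.075 (loess) and -0.12 (mean of probe sets). Furin cKO minus WT: Bcl6 0.015 (loess) and 0.20 (mean of probe sets), Il21 -0.50 (floor at the 20th), Tox2 -0.01 and Slamf6 -0.17 (mean of probe sets). With 1 array left out, regulatory minus memory ranged from -0.64 to 0.44 for Bcl6, -0.74 to 0.24 for Cxcr5, -0.28 to 0.17 for Sh2d1a and -0.23 to 0.55 for Cd200. Activated minus regulatory ranged from -0.77 to 0.22 for Il21 and -0.028 to 0.097 for Slamf6. Furin cKO minus WT ranged from -0.22 to 0.33 for Bcl6, -0.53 to 0.24 for Cxcr5, -0.27 to 0.45 for Il21 and -0.13 to 0.25 for Tox2. Causes were not tested. A lone array is assumed to vary like the others. Ascl2, Il21 and activated Cxcr5 and Tox2 lie near background, where a fold is least sure.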
